A study of Mus musculus with 2 samples.

Results

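The genes described here encode developmental regulators of the EYA, SIX-family and DACH proteins. They were the 8 genes Eya1, Eya2, Eya3, Eya4, Six2, Six4, Six5 and Dach1, taken by symbol from the 19505 named genes on the array, with 1 probe set each. The group was chosen by the measured NRF3 minus GFP difference of Eya1, which was the highest in the series, so that value is a description and supports nothing further. The RNA came from B16F10 cells, a mouse melanoma line, in 2 populations. One was transfected with a GFP expression plasmid and the other with an NRF3 expression plasmid. Both carried a puromycin resistance vector, were selected with puromycin and received forskolin, an activator of adenylate cyclase, for 5 days. There was no population without forskolin, so its effect was not measured. The labels do not say whether each stable population was a clone or a pool, which promoter drove the plasmids or which species' NRF3 was used. Each group had 1 array, so the differences carry no error and were not tested, and every comparison is between these 2 RNA samples.

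EYA, DACH and SIX-family proteins work together in a network that builds sensory organs, kidney, muscle and cranial nerves in the embryo. SIX-family proteins are homeodomain transcription factors. EYA proteins are not known to bind specific DNA sites themselves but are recruited by SIX-family proteins as co-activators, and they carry a protein phosphatase domain. DACH proteins are related to the SKI oncoprotein and act mostly as repressors, and PAX factors act beside the network. Mutations of human EYA1 cause branchio-oto-renal syndrome.

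The deposited values are log2 expression values. The GFP array had a median of 6.05 and the NRF3 array one of 6.13, and the values reached 19.8, above the log2 limit of 16 for a 16-bit scanner reading. Every fold is therefore a fold on the deposited scale. A gene was called detected when its brighter value reached 5.89, the median of all named probe sets, which 10162 genes did. The floor is a convention, since background was not measured for each gene. The 5222 control rows whose names hold "neg" had medians of 6.12 (GFP) and 6.37 (NRF3) and upper quartiles of 7.52 and 7.85. The 23 background control rows sorted by GC content reached 7.11 and 8.16. Nfe2l3, the gene of NRF3, had a log2 value of 6.04 in GFP and 10.1 in NRF3 cells. All 8 melanocyte markers examined, among them Tyr, Tyrp1 and Sox10, were detected, the lowest value being 11.7, that of Tyr in the GFP cells. None of the 14 measured markers of leukocytes, fibroblasts and endothelium, or epithelium was detected. Of 8 skeletal muscle markers, a tissue where the network acts, 3 were detected, and the highest value was 7.81, that of Ckm in the GFP cells. Des was at least 2-fold lower in the NRF3 cells, at 7.70 (GFP) and 5.83 (NRF3), while Ckm and Actc1 were within 2-fold.

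Eya1 (NCBI gene 14048, chromosome 1) had a log2 value of 6.87 in the GFP cells and 13.4 in the NRF3 cells, a difference of 6.54 or 93.0-fold. In RNA of a whole population, more RNA in every cell and more cells that make it cannot be told apart. Of the 8 genes it alone was at least 2-fold higher, and none was at least 2-fold lower. The same rule was met by 6.75% of all detected genes in the higher direction and by 11% in the lower. Because the genes were chosen for this contrast, nothing is read from the count beside those shares. The other 7 genes differed by at most 0.55 on the log2 scale, which is under 1.5-fold. The median difference was 0.13 over the 8 genes and -0.07 over all detected genes.

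**Figure D1:**
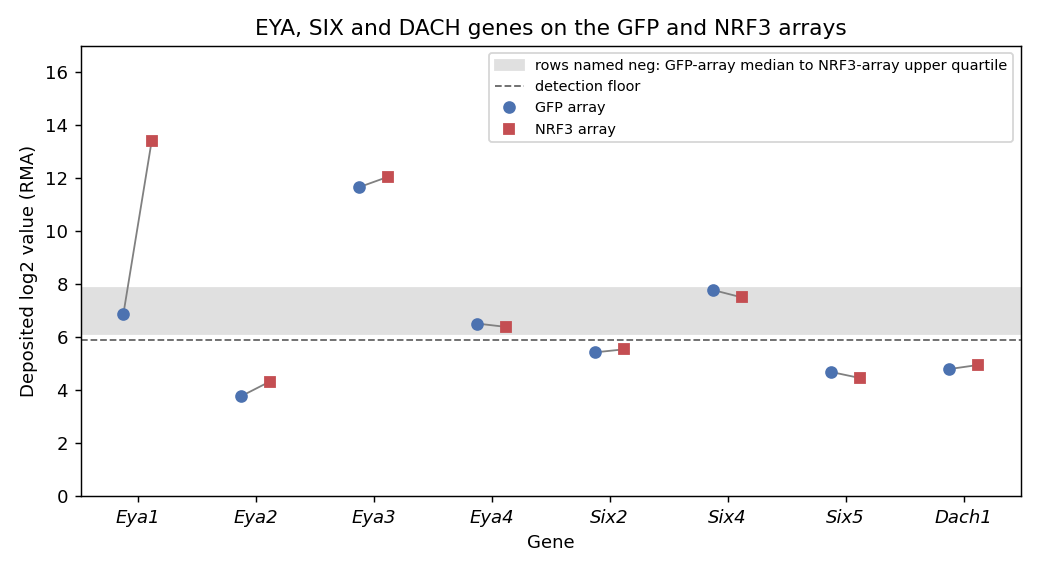
Deposited log2 values of the 8 genes in GFP cells (circles) and NRF3 cells (squares), 1 array each, with the detection floor of 5.89 (dashed) and, shaded, the range from the GFP-array median (6.12) to the NRF3-array upper quartile (7.85) of the control rows named neg. Eya1 goes from inside the shaded range to 13.4, Eya3 lies above the range on both arrays, and Eya2, Six2, Six5 and Dach1 lie under the floor on both.

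The GFP value of Eya1 was not clearly above the controls. On that array 35.8% of the rows named neg and 3 of the 23 background rows were as bright. On the NRF3 array 1.07% of the rows named neg and 0 background rows were as bright. With the upper quartile of the neg rows put in place of the GFP value, the difference was 5.89 on the log2 scale, or 59.5-fold. With the brightest background row of the GFP array in its place it was 6.30, or 78.9-fold. The NRF3 value thus lay far above the GFP array's controls by either measure, while the size of the fold depends on what is taken for the GFP level.

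That Eya1 ranks first is how the group was chosen. The next highest detected gene was Aass, an enzyme of lysine breakdown, at 4.62. Of the 1201 other detected genes whose GFP value lay within 0.5 of that of Eya1, 78 were at least 2-fold higher and 110 at least 2-fold lower. Over all detected genes the shares were 6.75% and 11%. The differences of the 1201 genes ran from -3.46 to 4.02, with a median of -0.04 and quartiles of -0.51 and 0.37. The highest of them was Sema6d, a transmembrane semaphorin. Sema6d was also among the 3 genes nearest to Eya1 by Euclidean distance over both log2 values, with 6.85 (GFP) and 10.9 (NRF3) and a distance of 2.54. The nearest was Atmin, which encodes a zinc finger cofactor of the ATM kinase, with 8.69 and 11.8 and a distance of 2.42. The third was Oca2, a melanosome membrane transporter gene, with 8.12 and 10.9 and a distance of 2.76. Atmin lies on chromosome 8, Oca2 on 7 and Sema6d on 2, whose detected genes had median differences of 0.56, 0.23 and -0.23. The part of those shifts in the values of the 3 genes was not tested. With only 2 arrays such a distance states likeness of a pair of values. Predicted gene models and genes with Rik symbols were left out of this ranking. Among the genes ranked, none was nearer to the pair of Eya1 than Atmin, at 2.42.

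**Figure D2:**
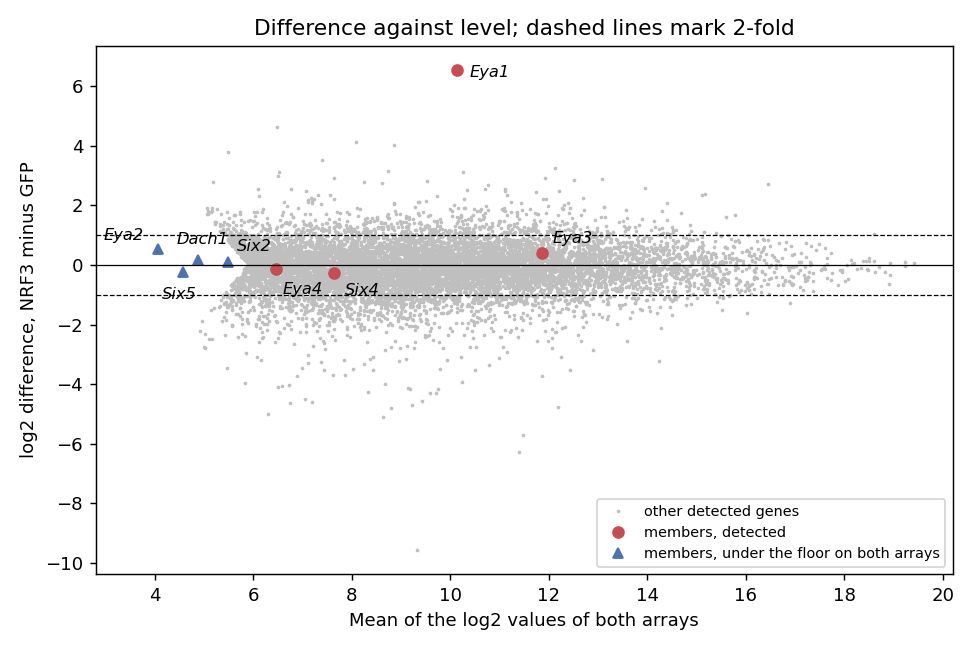
The log2 difference of NRF3 minus GFP (vertical) against the mean of both log2 values (horizontal) for the 10162 detected genes (grey), with the detected members as circles and the members under the floor as triangles. Eya1 lies at 6.54, above every other gene, and the other 7 members lie between the dashed lines that mark 2-fold.

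The genes beside Eya1 on chromosome 1 had differences in both directions. Nearest on one side were Xkr9, with 4.57 (GFP) and 4.55 (NRF3), Lactb2, an RNA nuclease gene, with 14.3 and 13.2, and Tram1, of protein translocation into the endoplasmic reticulum, with 13.6 and 14.4. On the other side Msc, a bHLH repressor gene, lay at 4.54 and 4.38, the ion channel gene Trpa1 at 3.68 and 3.49, and the potassium channel gene Kcnb2 at 3.58 and 3.80. Of these 6 genes only Lactb2 and Tram1 were detected, with differences of -1.11 and 0.81. Over the 5 measured genes on each side the differences ran from -1.11 to 1.17. The highest was that of Sbspon, named after its value was seen, which lay under the floor on both arrays. Chromosome 1 as a whole was lower in the NRF3 cells. Its 552 detected genes had a median difference of -0.51, and 8 of them, Eya1 included, were at least 2-fold higher against 129 at least 2-fold lower. Eya1 lay opposite in sign to the median of its chromosome. It was chosen for the largest rise in the series, so no neighbour could show a higher one. Nothing is read from the smaller differences of the neighbours.

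**Figure D3:**
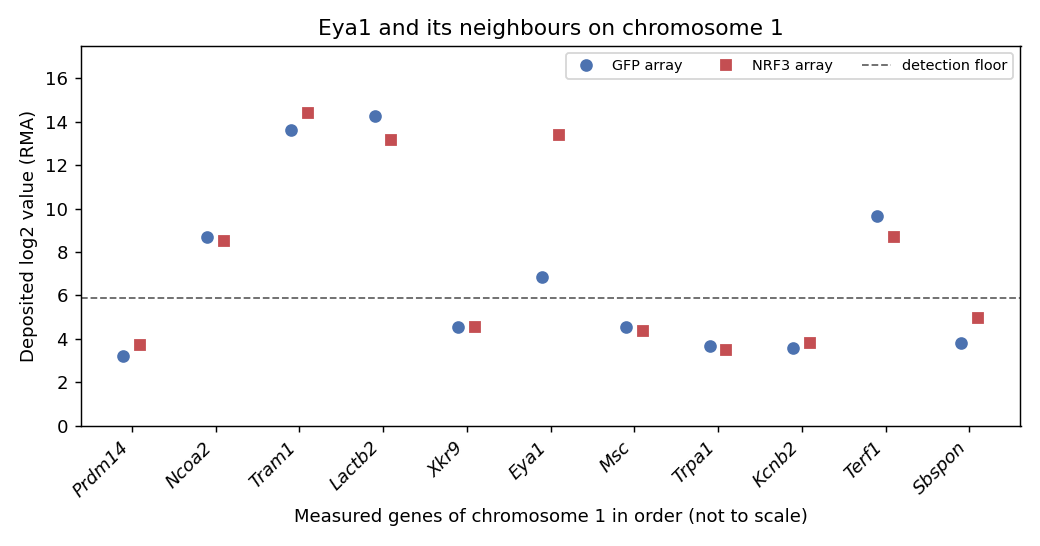
Deposited log2 values in GFP cells (circles) and NRF3 cells (squares) of Eya1 and the 5 measured genes on either side of it, in chromosomal order and not to scale, with the detection floor (dashed). The value of Eya1 goes from 6.87 to 13.4, and no neighbour differs by more than 1.17 in size.

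The other EYA genes had different levels relative to the controls and small differences. Eya3 (NCBI gene 14050, chromosome 4), the paralog known for wide expression, lay at 11.7 in GFP and 12.1 in NRF3 cells. Its difference was 0.38, or 1.31-fold, and 2561st from the highest among the detected genes. At most 2.13% of the neg rows on either array were as bright, so Eya3 was the 1 member well above the controls on both arrays. In genes of a mean level from 11 to 13 the quartiles of the difference were -0.50 and 0.41, and that of Eya3 lay between them. Eya4 (NCBI gene 14051, chromosome 10), whose human counterpart is a deafness gene, lay at 6.52 and 6.39. Of the neg rows 42.5% and 49.8% were as bright, so the detection of Eya4 rests on the floor rule alone. Its difference of -0.12 turned to 0.0017 after each array was centred on its median and has no settled sign. Eya2 (NCBI gene 14049, chromosome 2), a co-activator of muscle precursors, lay under the floor at 3.78 and 4.33, and 91.5% and 86.7% of the neg rows were as bright.

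None of the 3 SIX-family genes stood clear of the controls on both arrays. Six4 (NCBI gene 20474, chromosome 12), which acts in muscle and kidney development, was the 1 detected SIX-family gene. Its log2 values were 7.78 in GFP and 7.51 in NRF3 cells, and 21.1% and 30% of the neg rows were as bright. The difference of -0.27 was 6240th from the highest among detected genes. Six2 (NCBI gene 20472, chromosome 17), which maintains kidney progenitors, lay under the floor at 5.43 and 5.55. Six5 (NCBI gene 20475, chromosome 7), the neighbour of the myotonic dystrophy kinase gene Dmpk, lay under it at 4.69 and 4.46. Six3 and Six6, of eye and forebrain, were also under the floor, between 3.48 and 5.46 on both arrays. For genes under the floor a small difference does not show equal expression, since both values may be background.

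Dach1 (NCBI gene 13134, chromosome 14), the repressor of the set, lay at 4.80 in GFP and 4.95 in NRF3 cells. Both values were under the floor, and 76.9% and 77.9% of the neg rows were as bright. Dach2 was also under the floor, with a difference of -0.65. The set thus held 4 detected genes, Eya1, Eya3, Eya4 and Six4. In the deposited values 2 of them were higher and 2 lower in the NRF3 cells. The lower were Eya4, whose sign is not settled, and Six4, which did not stand clear of the controls.

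Windows before the annotated start of 6 of the 8 genes were found in RefSeq sequence (GRCm38.p6), and those of Eya1 and Eya2 were not analysed here. Printed are the 250 bases before the start of Eya3, the 1 member well above the controls on both arrays, and of Six4, the 1 detected SIX-family gene. Eya3 lies on the plus strand at chr4:132638796-132639045 and Six4 on the minus strand at chr12:73113246-73113495, both written 5′ to 3′. Capitals mark matches to the motifs searched, which are GC boxes and, in Six4, also 1 match to the MEF3 core that SIX-family proteins bind, on the reverse strand.
Eya3: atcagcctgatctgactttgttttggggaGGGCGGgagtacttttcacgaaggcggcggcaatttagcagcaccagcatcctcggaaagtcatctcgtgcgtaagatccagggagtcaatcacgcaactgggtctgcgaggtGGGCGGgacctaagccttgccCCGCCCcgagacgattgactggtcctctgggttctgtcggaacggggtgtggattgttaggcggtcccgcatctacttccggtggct
Six4: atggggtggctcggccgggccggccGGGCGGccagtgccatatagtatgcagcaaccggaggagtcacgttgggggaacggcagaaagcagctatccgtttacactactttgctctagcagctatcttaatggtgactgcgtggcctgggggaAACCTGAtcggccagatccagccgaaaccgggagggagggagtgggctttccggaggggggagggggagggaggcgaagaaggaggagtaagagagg

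Both strands of each window were searched for 7 motifs, and a match is a description of letters only. The antioxidant response element core TGACNNNGC, the kind of site that NRF factors bind with small MAF proteins, was in none of the 8 windows of the 6 genes and in 10.2% of all 32851 windows. The cAMP response element half-site TGACG was in none of the 8 and in 17.8% of all. The E-box CACGTG, which MITF binds, was in none of the 8 and in 6.02% of all. The AP-1 site TGANTCA, which can overlap the antioxidant core, was in the window of Six5 and in 6.75% of all. The MEF3 core TCAGGTT was in 1 of the 2 overlapping windows of Six4 and in 3.49% of all. The GC box GGGCGG was in every window except that of Dach1 and in 32.7% of all, and CCAAT was in the window of Six2, 1 window of Six4 and 33.8% of all. The 2 windows of Eya4 overlap as well, so the 8 windows are not independent. Their GC content ran from 54.8% to 74%, against a median of 52.4% for all windows, and GC-rich windows match a GC box more readily.

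The wider network was examined through 8 lists that hold 84 measured genes, of which 37 were detected. Among the 37, 2 genes had a difference of 2-fold or more toward the NRF3 cells and 6 toward the GFP cells, against the 6.75% and 11% of all detected genes given above. The lists and the 8 members share no gene. Among the SKI and DACH relatives, Ski, a repressor of TGF-beta signalling, lay at 10.3 in GFP and 8.72 in NRF3 cells, a difference of -1.56, while Skil differed by -0.20. The other 3 relatives were under the floor. Of the 9 PAX genes only Pax3, a regulator of the melanocyte lineage and a known partner of this network, was detected, at 13.6 and 13.2. Of 4 detected TLE genes, which encode co-repressors that SIX-family proteins can recruit, Tle3 was 3.07-fold lower, from 10.7 to 9.12, and the list median was -0.43. No TLE gene was at least 2-fold higher.

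Genes for partners of the member proteins had differences in both directions. All 8 measured genes of DACH1 corepressor partners and associated co-regulators were detected and within 2-fold, with a median of 0.06. Sin3b and Crebbp were the highest, at 0.84 and 0.42, and the deacetylase genes Hdac3 and Hdac1 the lowest, at -0.86 and -0.81. Of 7 detected genes for EYA phosphatase partners and DNA damage factors, 6 had a negative difference, with a median of -0.60. The median over all detected genes was itself negative, at -0.07. At 2-fold 0 genes of the list were higher and 2 lower, beside 6.75% and 11% of all detected genes. Mdc1, which binds phosphorylated H2AX at DNA breaks, lay at 9.50 in GFP and 7.77 in NRF3 cells, the latter under the upper quartile of the neg rows. Fzr1, an activator of the anaphase-promoting complex, lay at 11.3 and 10.2, a difference of -1.11. After median centring Fzr1 was within 2-fold, and 1 gene of the list was at least 2-fold lower in place of 2.

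Of 20 measured genes reported as targets of EYA and SIX-family proteins, 10 were detected, with a median difference of -0.12. At 2-fold 0 were higher and 1 was lower, beside 6.75% and 11% of all detected genes, so these few genes do not stand apart by count. The lower gene was Myc, the proto-oncogene, which lay at 11.5 in GFP and 8.04 in NRF3 cells, a difference of -3.50. The muscle regulators Myod1, Myog, Myf5 and Myf6 lay between 3.16 and 5.51 on both arrays, under the floor. Of the glycolysis genes in the list, Ldha lay at 18.4 and 18.6, and Pgk1 and Aldoa differed by 0.10 and 0.13. Pfkl and Hk2 had negative differences, -0.62 and -0.13. The list's median turned to 0.0095 after median centring.

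Most genes of placode, ear and kidney development were under the floor, and 5 of 24 measured genes were detected. Irx3, an Iroquois homeobox gene, lay at 8.58 in GFP and 10.9 in NRF3 cells, 4.92-fold higher. Irx5, its neighbour, lay at 6.51 and 7.85, a difference of 1.34. Its GFP value was under the upper quartile of the neg rows. Its NRF3 value was just under that of its own array (7.848 against 7.851) and under the brightest background row there, 8.16. Irx3 and Irx5 lie on chromosome 8, whose 549 detected genes had a median difference of 0.56. The part of that shift in the values of Irx3 and Irx5 was not tested. Dlx6, a distal-less homeobox gene, lay at 6.79 and 4.96. Its GFP value was under the upper quartile of the neg rows and its NRF3 value under the floor. The other detected genes of the list, Tfap2a and Foxc1, were within 2-fold, with differences of 0.59 and -0.04. Sox2 and Isl1 of this list were under the floor on both arrays, as were Gdnf and Sall1 from the list of reported targets. Sox2, Isl1, Gdnf and Sall1 are examples of markers or targets of the tissues where Eya1 acts, chosen after their values were seen.

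**Figure D4:**
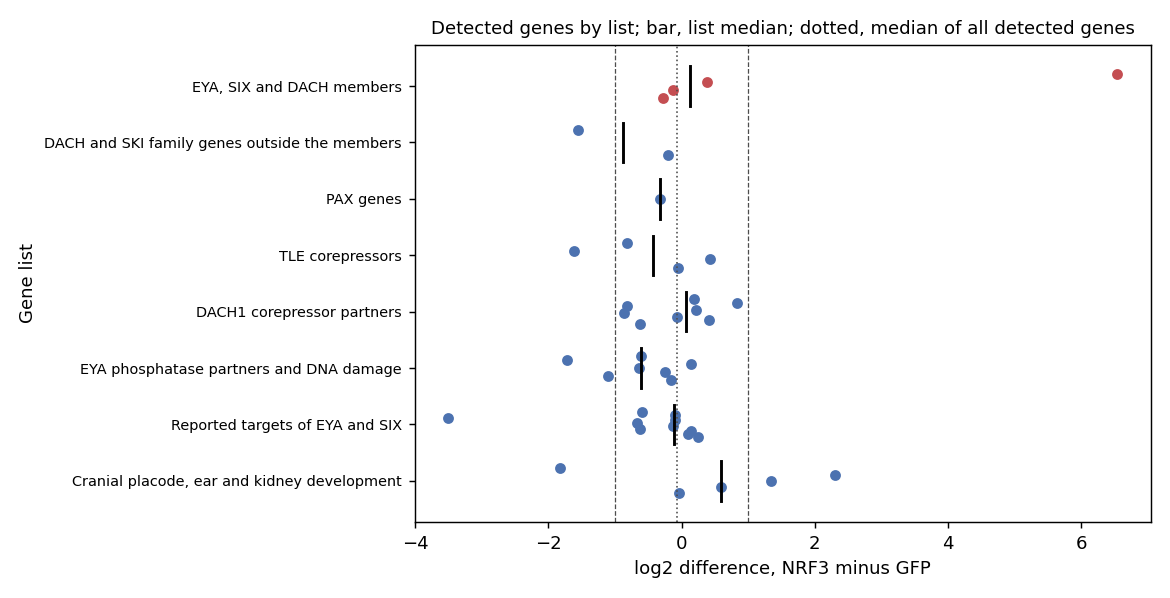
The log2 difference of NRF3 minus GFP for the 4 detected members (red) and the detected genes of 7 network lists (blue), 1 point per gene, with list medians as bars, 2-fold as dashed lines and the median of all detected genes, -0.07, as a dotted line. Eya1 lies at 6.54, the lowest point is Myc at -3.50, and the list of other SIX-family genes is not drawn because none was detected.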

How the data were processed

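Total RNA of 2 B16F10 populations was measured on 1 Affymetrix array each. The deposited log2 values were made by the authors with Affymetrix Expression Console and RMA, per the submitters' processing notes. Software versions, background settings and build: not given in the sources used here. Because RMA scales arrays to each other, a shift of all genes is not measured.

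Of 28846 rows, 19572 carried a gene symbol in the platform annotation. Where a gene had more than 1 probe set, as 55 did, the brightest by mean was used. The difference was the NRF3 minus the GFP log2 value, with at least 2-fold as a rule of size and no test. RefSeq (GRCm38.p6) gave chromosomes, gene order and promoter windows. Python 3.11.15, pandas 2.3.3 and statsmodels 0.14.6 were used, and the script was tested on simulated data.

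The members and lists were chosen with earlier results of these data known. Named are the members, Nfe2l3, list genes past 2-fold (otherwise the 2 highest and 2 lowest), the 3 genes nearest to Eya1 in value and its 3 neighbours on each side. Predicted gene models and genes with Rik symbols were not ranked for nearness in value. Other genes serve as examples for counts and were chosen after their values were seen. Array data give no read depth, and the number of arrays limits the precision. Alternatives were other floors, scalings, probe set rules and size rules.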

Additional observations from a re-analysis of the deposited data

How the results depend on the processing

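Of 7 alternatives, 4 (both floors, the probe set mean and the 1.5-fold rule) cannot move the difference of Eya1, which has 1 probe set, and the 3 rescalings gave 6.62 to 6.66. Replacing its GFP value, chosen after seeing the data, gave 5.89 with the upper quartile of the neg rows and 6.30 with the brightest background row. The counts of members past the size rule stayed at 1 higher and 0 lower, with 2 members detected at a floor of the 75th percentile. Quantile normalization and the lowess trend (span 0.3) were fitted on detected genes and gave no value for the 4 members under the floor. The medians of the detected genes differed by -0.13 between the arrays, so centring raised every difference by that size. It turned Eya4 to 0.0017 and gave 935 higher and 873 lower genes at 2-fold, against 686 and 1122 in the deposited scaling. With 1.5-fold as the size rule 1728 genes were higher and 2396 lower, and with no floor the PAX genes had a median of 0.20. No paired analysis was possible because each group has 1 array. Signal over background limits every member except Eya3 on the GFP array, and all except Eya1 and Eya3 on the NRF3 array.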
